A study of Mus musculus with 43 samples.

Results

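The 10 genes of lipid mediator signalling described here were followed in sorted lung phagocytes of newborn mice: Ptges, Ptgs1 and Ptgs2 of prostaglandin synthesis, Alox5, Alox5ap, Ltc4s and Lta4h of leukotriene synthesis, the leukotriene receptor gene Cysltr1, and Pla2g7 and Ptafr of platelet-activating factor (PAF) breakdown and sensing. They are 10 of the 37991 genes in the deposited count table and were found by matching its Ensembl identifiers to gene symbols. The genes were chosen by pathway and with measured values of these same libraries in view, and which of those values weighed in the choice is not recorded, so counts over the 10 genes describe them and support nothing about the pathway.

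The libraries hold RNA of mononuclear phagocytes sorted from perfused and digested whole lungs of newborn C57BL/6 mice. Litters were found within 6 hours of birth and mixed, and pups were assigned at random to room air (normoxia) or to a fraction of inspired oxygen of 0.9 (hyperoxia), each for 1.5 days. The sort gates named in the series' design were high MHC class II and CD11c for dendritic cells (DC), high Siglec-F and CD11c for alveolar macrophages (AM), high Ly6C with low CD11c for Ly6Chi monocytes and macrophages, and low Ly6C with high CD11c for Ly6Clo monocytes and macrophages. All groups are wild type, and the labels name no drug or transgene. The 43 libraries form 8 groups: normoxia with 6 libraries each of DC, AM and Ly6Chi and 5 of Ly6Clo, and hyperoxia with 5 libraries of each population. Labels give litter 93, 100 or 108 to each library, and every hyperoxic group holds 2 libraries of litter 93, 1 of litter 100 and 2 of litter 108. Pups are not named for any library, so p-values measure the spread between libraries, and whether libraries of different populations came from the same pup is not stated.

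Arachidonic acid released from membrane phospholipids feeds both eicosanoid branches. Cyclooxygenases turn it into the precursor from which terminal synthases make the prostaglandins, whereas 5-lipoxygenase, helped by its activating protein, makes the unstable leukotriene that Lta4h turns into a chemoattractant and Ltc4s into the cysteinyl leukotrienes. PAF is a phospholipid mediator that acts through Ptafr and is inactivated by acetylhydrolases, and lung macrophages are known both to make and to sense these lipids.

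Library totals ranged from 551960 to 2403861 counts, and 5 libraries held fewer than 1000000 (1 of normoxic AM, 3 of hyperoxic AM and 1 of hyperoxic Ly6Clo). Levels below are CPM, counts scaled to a library of 1000000 after normalization. DC, AM and Ly6Chi carried their markers. In normoxia the summed level of 12 AM marker genes was 3991 to 4886 CPM in AM, 2164 to 3389 in Ly6Clo, 734 to 925 in Ly6Chi and 331 to 534 in DC. That of 11 DC genes was 3450 to 5021 CPM in normoxic DC and 39.7 to 576 in the other normoxic libraries. That of 8 classical monocyte genes was 3923 to 5399 CPM in normoxic Ly6Chi and 556 to 1911 in the others. The 8 non-classical monocyte genes did not set Ly6Clo apart, at 1030 to 2153 CPM in normoxic Ly6Clo and 1337 to 1769 in normoxic Ly6Chi. In normoxia 8 interstitial macrophage genes summed to 1163 to 2732 CPM in Ly6Clo, 1214 to 1771 in DC, 492 to 860 in AM and 230 to 412 in Ly6Chi. Transcripts of other cells were present too. The 11 neutrophil genes summed to 1329 to 2739 CPM in normoxic Ly6Chi and to 124 to 1166 in the other normoxic populations, the 12 genes of mast cells, basophils and eosinophils to 1.12 to 517 CPM, and the 7 platelet genes to 0 to 146 CPM. The 6 B cell genes summed to 589 to 1312 CPM in DC libraries and to 15.3 to 788 in the others. Medians of lung structural markers were lower under hyperoxia, and were not tested. The median sum of the 11 epithelial genes was 1071 CPM in normoxic and 574 in hyperoxic DC, 1924 and 1132 in AM, 1206 and 222 in Ly6Chi, and 1053 and 311 in Ly6Clo, with overlapping libraries in each. The median sum of the 8 endothelial genes was 209 and 136 CPM in DC, 422 and 156 in AM, 514 and 218 in Ly6Chi, and 224 and 130 in Ly6Clo, again with overlap. Their part in the values below was not tested.

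Comparing hyperoxia with normoxia within each population asks whether oxygen moved these genes, and no gene of the 10 passed the test in any population. Ptges, the inducible terminal synthase of prostaglandin E, had the largest log2 fold change of the tested genes in DC (3.87 ± 0.74, SE), Ly6Clo (2.24 ± 0.73) and Ly6Chi (1.60 ± 0.62). In AM it was at 1.54 ± 0.54, below Pla2g7 at 2.17 ± 0.88 and above Ptafr at 1.33 ± 0.35. The 2 highest hyperoxic values of Ptges in each population were those of the litter 100 library and of 1 of the 2 litter 108 libraries. In bulk RNA a change in the share of cells that express a gene and a change in RNA per cell cannot be told apart.

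The libraries with high Ptges were not alike in depth, and some other transcripts were high in them as well. The hyperoxic library of litter 100 was the shallowest of the 5 in each population, with 1309747 counts in DC, 551960 in AM, 1026528 in Ly6Chi and 647844 in Ly6Clo, whereas the litter 108 library with high Ptges held 1636916 to 2298828 counts over the 4 populations. The summed level of 9 T and NK cell genes was highest in the same 2 libraries of each hyperoxic group: 193 and 117 CPM in DC (others 44.6 to 83.1), 301 and 240 in AM (40.8 to 63.9), 427 and 98.4 in Ly6Chi (1.26 to 19.5) and 460 and 349 in Ly6Clo (37.5 to 67.4). Normoxic libraries reached 270 CPM in DC, 127 in AM, 126 in Ly6Chi and 537 in Ly6Clo, each in a library of litter 93. In those normoxic libraries most of the sum was Cd3e, Cd3d, Cd3g, Trbc2 and Cd8a, with Cd3e at 30.1, 5.88, 16.6 and 59.1 CPM in turn. In the hyperoxic pairs of DC, AM and Ly6Clo most of the sum was Il7r, the interleukin 7 receptor gene, at 102 to 453 CPM. Normoxic libraries held at most 80.5, 46.2 and 62.4 CPM of Il7r in DC, AM and Ly6Clo. Cd3e, a defining T cell gene, was at 0 to 1.95 CPM in the 8 hyperoxic libraries of these pairs, but other genes of the list were not all low. Cd3d, Cd3g and Nkg7 were at 19.5, 10.1 and 37.4 CPM in the litter 100 library of DC. They were at 11.7, 11.7 and 19.5 CPM in that of AM, and at 3.27, 0 and 1.64 in that of Ly6Clo. In the litter 108 libraries with high Ptges of these populations they were at 0 to 6.99 CPM. In the Ly6Chi library of litter 100 Nkg7 (231 CPM) and Cd3g (93.3 CPM) made up most of the sum, with Cd3e at 1.06 CPM. The part of T and NK cells in the results was not tested. Depth was varied only among the alternative fits described below. One of them left out libraries under 1000000 counts, which takes out the litter 100 library of hyperoxic AM and that of hyperoxic Ly6Clo. The separate results of those depth fits are not given here, so nothing is concluded about depth.

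Of the 10 genes, 9 passed the filter on low counts in DC, AM and Ly6Clo, where Ptgs2 did not, and all 10 passed in Ly6Chi. By edgeR's quasi-likelihood test with litter as a block and Benjamini-Hochberg adjustment over all genes, 0 of the 9 tested genes were called in DC, beside 0% of all 11274 genes tested. In AM 0 of 9 were called, beside 0.110% of 9986 genes. In Ly6Chi 0 of 10 and in Ly6Clo 0 of 9 were called, beside 0% of 10844 and 0% of 10188 genes. An unadjusted p under 0.05 was found for 3 genes in DC (background 8.85%), 4 in AM (9.91%), 1 in Ly6Chi (5.45%) and 2 in Ly6Clo (5.30%). DESeq2 called Ptges in DC (adjusted p = 0.00799) and, in AM, Ptges (adjusted p = 0.0488) and Ptafr (adjusted p = 0.0388), and called 0 of the 10 in Ly6Chi and Ly6Clo. No gene of the 10 had normoxic and hyperoxic libraries that did not overlap in CPM, where 0.435% of all tested genes did in DC, 0.921% in AM, 0.203% in Ly6Chi and 0.726% in Ly6Clo.

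The same direction in each of the 3 litters is a weaker description. Ptges, Alox5ap, Pla2g7 and Ptafr were higher on average under hyperoxia in all 3 litters in DC, as were 15.2% of all tested genes. In AM these were Ptges, Ptgs1, Alox5ap and Ptafr (background 16.3%), in Ly6Clo Ptges and Ptafr (9.75%), and in Ly6Chi none (13.5%). Cysltr1 in Ly6Chi was the 1 gene of the 10 that was lower in all 3 litters in any population (background 14.1% in Ly6Chi, 16.2% in DC, 16.0% in AM and 12.7% in Ly6Clo). The median log2 fold change over the tested genes of the list was 0.08 in DC, 0.35 in AM, 0.12 in Ly6Chi and −0.10 in Ly6Clo, where the medians over all tested genes were 0.00093, −0.010, −0.015 and −0.015. A test of whether the hyperoxia change differs between the 4 populations called 0 of the 10 genes, beside 0% of 12529 genes, with Pla2g7 the 1 gene at an unadjusted p under 0.05 (edgeR adjusted p = 0.725; background 4.92%), and 0 of the 10 by DESeq2.

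**Figure D1:**
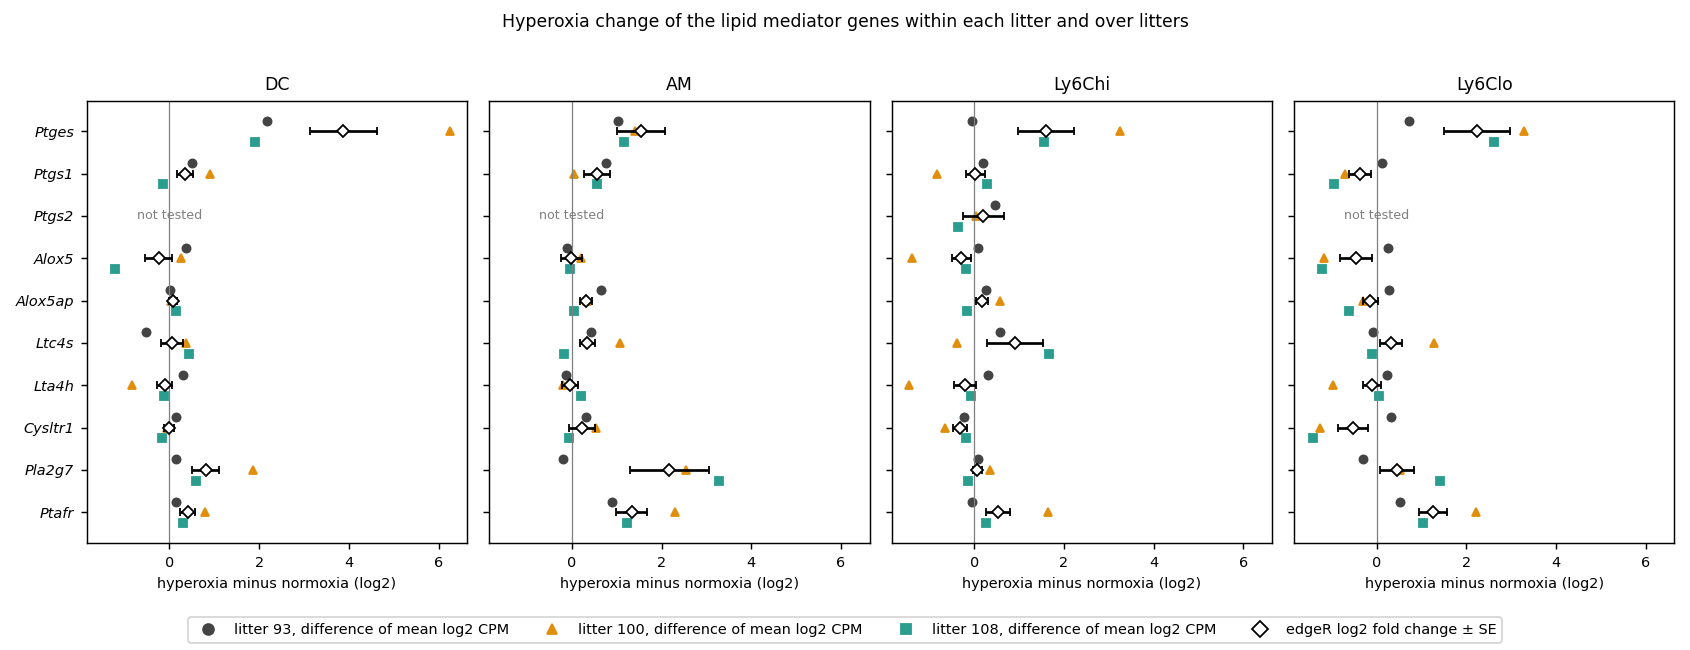
Log2 difference between hyperoxia and normoxia (x axis) for each gene (y axis) in the 4 populations. Filled symbols are differences of mean log2 CPM within litter 93, 100 or 108, and open diamonds are edgeR log2 fold changes over litters with their SE. Ptges in DC spreads from 1.90 in litter 108 to 6.25 in litter 100, and Alox5ap stays close to 0 in DC.

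Ptges was low in normoxic DC, with 0.53, 2.20 and 5.95 CPM as the lowest, median and highest of 6 libraries. In hyperoxic DC it was at 8.16 and 3.98 CPM in litter 93, 214 in litter 100, and 9.55 and 42.97 in litter 108. The groups overlapped only through the 3.98 CPM library, yet the hyperoxic mean of 55.8 ± 89.9 CPM (SD, n = 5) against 2.69 ± 2.04 (n = 6) was raised most by a single library. The log2 fold change of 3.87 (edgeR adjusted p = 0.362) was 2.48 without the litter 100 library (adjusted p = 0.742) and 4.43 with an adjusted p of 0.00737 without the litter 108 library at 9.55 CPM.

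In normoxic AM Ptges ran from 18.0 over a median of 25.5 to 49.8 CPM. Under hyperoxia the AM libraries held 32.7 and 60.2 CPM in litter 93, 107 in litter 100, and 13.3 and 184 in litter 108. One hyperoxic library thus lay below every normoxic one and 3 lay above all of them. The log2 fold change of 1.54 (edgeR adjusted p = 0.349) became 1.78 (adjusted p = 0.0283) without the 13.3 CPM library and 0.75 (adjusted p = 0.404) without the 184 CPM library.

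In Ly6Chi the normoxic libraries ran from 5.18 over 9.89 to 45.4 CPM of Ptges, and the hyperoxic ones held 3.79 and 18.2 CPM in litter 93, 156 in litter 100, and 18.3 and 71.1 in litter 108. Normoxic Ly6Clo held 16.8 and 18.9 CPM in litter 93, 41.3 and 15.5 in litter 100 and 15.7 in litter 108. Hyperoxic Ly6Clo held 27.6 and 32.5 CPM in litter 93, 253 in litter 100, and 35.4 and 276 in litter 108. In both populations the upper 2 of the 5 hyperoxic libraries stood above every normoxic library, and the other 3 lay inside the normoxic range or, for 1 Ly6Chi library, below it. Adjusted p by edgeR was 0.758 in Ly6Chi and 0.86 in Ly6Clo.

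The windows upstream of Ptges, Pla2g7 and Ptafr are shown because these 3 genes had the largest hyperoxia log2 fold changes of the list in AM. They are the 250 bases before the RefSeq gene start on build GRCm38.p6, read 5′ to 3′ in the direction of the gene, at chr2:30903298-30903547 (minus strand), chr17:43568201-43568450 (plus strand) and chr4:132563817-132564066 (plus strand). Capitals mark matches, on either strand, to GGGCGG (the GC box core), GAGGAA (an ETS-type core) and TTCNNNGAA (a STAT-type palindrome).
Ptges: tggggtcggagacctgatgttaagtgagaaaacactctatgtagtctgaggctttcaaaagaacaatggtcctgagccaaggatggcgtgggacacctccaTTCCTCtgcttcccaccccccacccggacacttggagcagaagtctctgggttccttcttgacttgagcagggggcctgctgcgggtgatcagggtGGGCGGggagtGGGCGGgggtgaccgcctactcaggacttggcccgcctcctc
Pla2g7: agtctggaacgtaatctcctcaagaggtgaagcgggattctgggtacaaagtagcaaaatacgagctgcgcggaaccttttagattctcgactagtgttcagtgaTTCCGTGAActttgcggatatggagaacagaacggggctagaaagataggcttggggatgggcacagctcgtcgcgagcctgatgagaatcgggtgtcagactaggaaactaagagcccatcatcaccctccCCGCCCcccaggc
Ptafr: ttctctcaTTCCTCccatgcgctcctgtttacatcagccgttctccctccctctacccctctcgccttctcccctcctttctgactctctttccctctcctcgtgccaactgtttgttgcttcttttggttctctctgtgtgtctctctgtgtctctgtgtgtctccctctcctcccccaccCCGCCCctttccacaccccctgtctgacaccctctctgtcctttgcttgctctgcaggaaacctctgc
All 3 windows hold GGGCGG, as do 32.7% of 32851 RefSeq windows of the same length. Ptges and Ptafr hold GAGGAA (23.3% of windows) and Pla2g7 holds TTCNNNGAA (7.02%). The letters describe the sequence and show no binding. Windows were found for 8 of the 10 genes, those other than Alox5ap and Cysltr1.

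**Figure D2:**
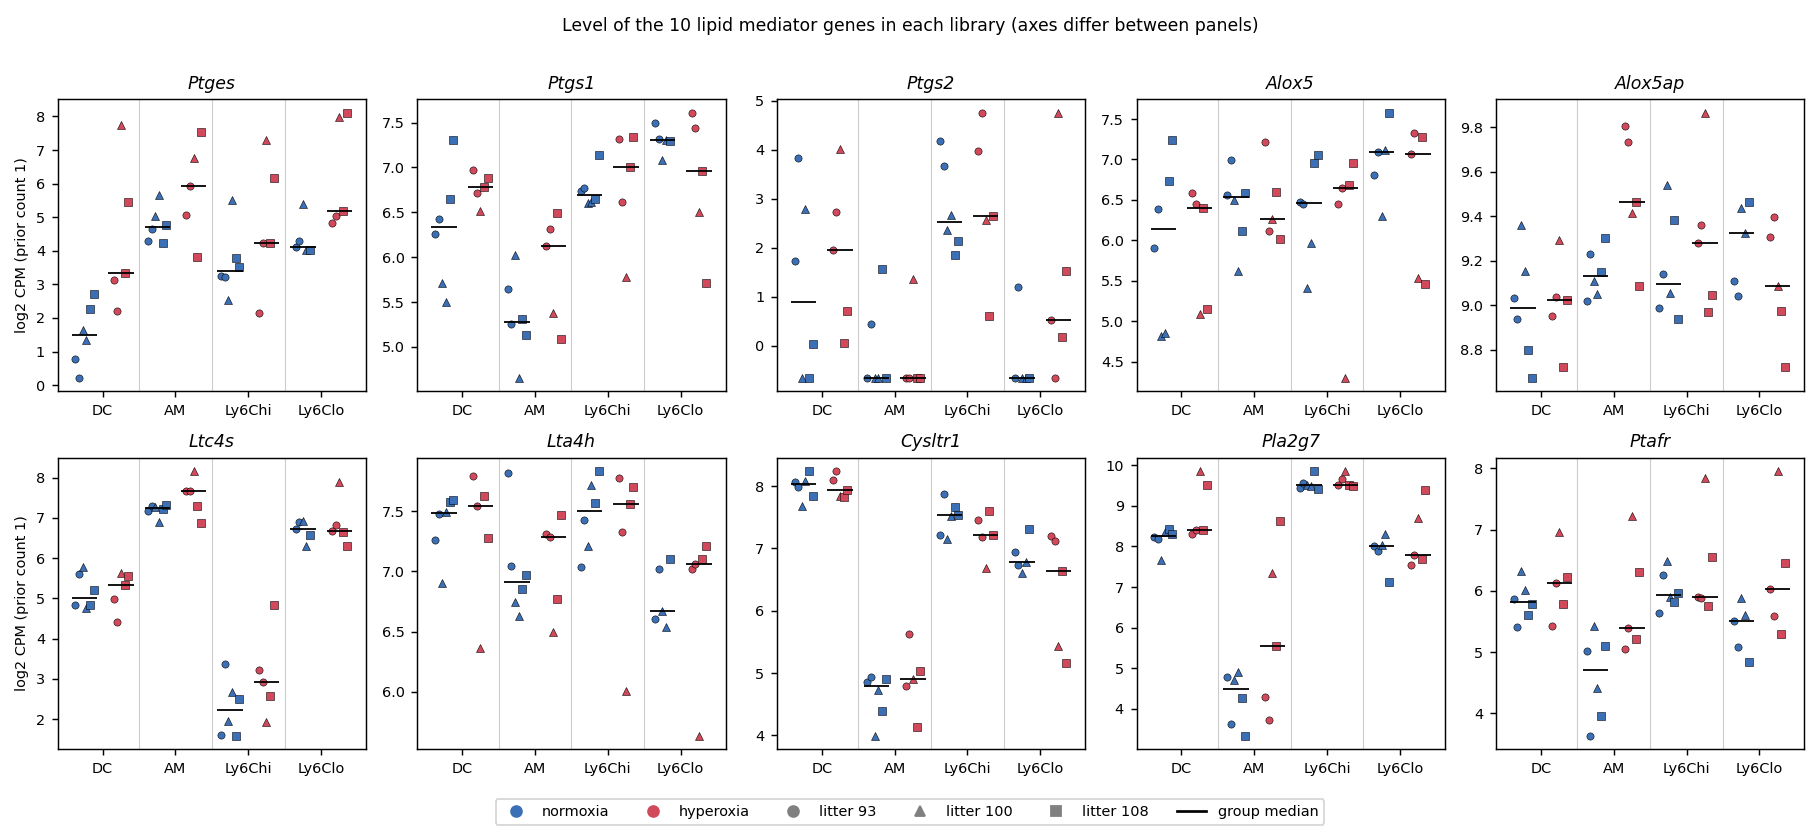
Level as log2 CPM (y axis, differing between panels) of the 10 genes in each of the 43 libraries, by population and oxygen (x axis), with symbols for litters. In the panels of Ptges and Ptafr the hyperoxic library of litter 100 is among the upper 2 of the hyperoxic libraries of every population.

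Ptgs1, the constitutive cyclooxygenase, did not pass the test in any population. In AM it ran from 24.6 over 38.3 to 64.4 CPM in normoxia and held 69.4, 79.0, 41.0, 89.7 and 33.4 CPM in the 5 hyperoxic libraries, so that 3 of the 5 lay above the normoxic range (log2 fold change 0.56 ± 0.30, edgeR adjusted p = 0.55). In Ly6Clo the hyperoxic libraries with the most Ptges had the least Ptgs1: 89.95 CPM in litter 100 and 51.9 in litter 108, where the other hyperoxic Ly6Clo libraries held 195, 172 and 124 CPM and the normoxic ones 135 to 180. The Ly6Clo log2 fold change was −0.36 ± 0.24, that in DC 0.35 ± 0.17 and that in Ly6Chi 0.03 ± 0.20, none of them past the test.

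Ptgs2, the inducible cyclooxygenase, was near the limit of detection in most libraries, with at most 43 counts in any of them. It had 0 counts in 4 of 6 normoxic AM libraries, 4 of 5 hyperoxic AM libraries and 4 of 5 normoxic Ly6Clo libraries, and 3 counts, the limit that a count of 0 allows, would equal 1.71 to 5.09 CPM in these libraries. Ly6Chi held it in every library, at 2.96 to 17.4 CPM in normoxia and 0.89 to 26.4 under hyperoxia (log2 fold change 0.21 ± 0.45, edgeR adjusted p = 0.928). The hyperoxic Ly6Clo library of litter 100 stood apart with 26.2 CPM from 16 counts, where the other hyperoxic Ly6Clo libraries held 0 to 2.23 CPM. Intervals and limits of this kind cover counting error only.

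Among the leukotriene synthesis genes, Alox5ap, which encodes the 5-lipoxygenase activating protein, was high and steady. Its group means ran from 516 to 735 CPM over all 8 groups. In AM it was at 519 to 631 CPM in normoxia and at 894 and 851 in litter 93, 682 in litter 100, and 707 and 543 in litter 108 under hyperoxia, where 4 of the 5 hyperoxic libraries exceeded every normoxic one (log2 fold change 0.32 ± 0.13, edgeR adjusted p = 0.39). Its counts reached 0.88 per exonic base, the most of the 10 genes, where the highest of any gene in the table was 1.73. If reads were limited to 2 positions per exonic base, its highest count would be too low by a factor of 1.32. Fits on counts corrected for such a limit were among the alternatives, and the levels given here are not corrected. In the other populations its log2 fold change lay between −0.14 and 0.17.

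Alox5, the 5-lipoxygenase itself, was low in some of the libraries in which Ptges was high. In hyperoxic Ly6Clo it held 133 and 160 CPM in litter 93, 45.8 in litter 100, and 154 and 43.5 in litter 108, where the 2 low libraries are the 2 with high Ptges and normoxic libraries ran from 78.5 to 190 CPM. In hyperoxic Ly6Chi the litter 100 library was lowest, at 19.1 CPM against 87.1 to 124 in the other hyperoxic and 42.1 to 133 in the normoxic libraries. The log2 fold changes were −0.46 ± 0.36 in Ly6Clo, −0.29 ± 0.21 in Ly6Chi, −0.24 ± 0.30 in DC and −0.01 ± 0.23 in AM, with edgeR adjusted p of 0.774 or more.

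Ltc4s, the synthase of cysteinyl leukotrienes, had log2 fold changes of 0.06 ± 0.24 in DC, 0.35 ± 0.18 in AM, 0.91 ± 0.62 in Ly6Chi and 0.33 ± 0.24 in Ly6Clo, none past the test, and in no population was it higher in all 3 litters. In AM it held 119 to 158 CPM in normoxia and 203, 203, 287, 157 and 117 CPM in the hyperoxic libraries of litters 93, 93, 100, 108 and 108 (edgeR adjusted p = 0.528). In Ly6Clo the litter 100 library was high at 237 CPM where the other hyperoxic libraries held 78.7 to 112 and the normoxic ones 78.3 to 120. In Ly6Chi, which had little of it, 1 hyperoxic library of litter 108 reached 27.7 CPM, above the 2.37 to 9.70 CPM of normoxia, and the other 4 held 3.18 to 8.66.

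Lta4h, the hydrolase that makes leukotriene B, was lowest in the hyperoxic library of litter 100 in all 4 populations, at 81.8 CPM in DC, 89.9 in AM, 63.6 in Ly6Chi and 49.1 in Ly6Clo. The other hyperoxic libraries held 155 to 222 CPM in DC, 108 to 177 in AM, 160 to 218 in Ly6Chi and 129 to 148 in Ly6Clo. Over all litters its log2 fold change lay between −0.20 and −0.04, and edgeR adjusted p was 0.848 or more. Without the litter 100 library it was 0.09 in DC, 0.013 in AM, 0.10 in Ly6Chi and 0.15 in Ly6Clo.

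Cysltr1, a receptor for cysteinyl leukotrienes, held its level in DC, with 205 to 301 CPM in normoxia and 226 to 303 under hyperoxia (log2 fold change −0.01 ± 0.11). In Ly6Clo it held 147 and 138 CPM in litter 93, 42.5 in litter 100, and 98.9 and 35.2 in litter 108 under hyperoxia, against 97.0 to 158 CPM in normoxia. The low pair are again the libraries with high Ptges, and the log2 fold change of −0.53 ± 0.33 did not pass the test (edgeR adjusted p = 0.86). In Ly6Chi it was 141 to 235 CPM in normoxia and 102 to 194 under hyperoxia (−0.32 ± 0.16, edgeR adjusted p = 0.758).

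Pla2g7, the secreted PAF acetylhydrolase, had its largest log2 fold change in AM. Normoxic AM held 9.47, 22.1 and 29.2 CPM as lowest, median and highest, and hyperoxic AM 19.0 and 12.5 in litter 93, 162 in litter 100, and 46.2 and 394 in litter 108. All litter 93 values lay inside the normoxic range and the other 3 above it, with a log2 fold change of 2.17 ± 0.88 (edgeR adjusted p = 0.465) that was 1.23 without the 394 CPM library. In DC it ran from 201 over 308 to 341 CPM in normoxia and held 313 and 339 in litter 93, 929 in litter 100, and 336 and 725 in litter 108 under hyperoxia.

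The DC log2 fold change of Pla2g7 was 0.80 ± 0.30 (edgeR adjusted p = 0.546) and 0.42 without the litter 100 library. In hyperoxic Ly6Clo the litter 108 library with high Ptges held 669 CPM and the litter 100 library 412, where the other hyperoxic libraries held 185 to 220 and the normoxic ones 139 to 315 CPM (log2 fold change 0.46 ± 0.38). Ly6Chi, which had the most Pla2g7, differed least, with 680 to 931 CPM in normoxia and 723 to 924 under hyperoxia (log2 fold change 0.07 ± 0.10).

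Ptafr, the PAF receptor, had the smallest unadjusted p-values of the 10 genes in AM and Ly6Clo. In AM it ran from 11.8 over 26.2 to 42.4 CPM in normoxia and held 32.7 and 41.4 in litter 93, 148 in litter 100, and 36.4 and 78.2 in litter 108 under hyperoxia (log2 fold change 1.33 ± 0.35, edgeR adjusted p = 0.202). In Ly6Clo it held 44.9, 33.4, 58.2, 48.0 and 27.9 CPM in normoxia and 64.9 and 47.5 in litter 93, 249 in litter 100, and 38.4 and 87.1 in litter 108 under hyperoxia (1.25 ± 0.31, edgeR adjusted p = 0.86). In both populations the litter 100 library was highest and part of the hyperoxic libraries lay within the normoxic range.

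The litter 100 library also held the most Ptafr in hyperoxic DC, at 124 CPM against 42.5 to 73.9 in the others, and in hyperoxic Ly6Chi, at 229 CPM against 53.0 to 93.2. Without that library the log2 fold change of Ptafr was 0.99 in AM, 0.75 in Ly6Clo, 0.25 in DC and 0.10 in Ly6Chi. Normoxic ranges were 41.7 to 79.6 CPM in DC and 49.0 to 89.3 in Ly6Chi.

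Comparing the normoxic populations asks where each gene is expressed at rest. Of the 9 tested genes, 8 differed between at least 1 of the 6 pairs of populations, beside 71.1% of all 11979 genes tested, so that differing between these sorts is common to most genes and not a feature of the list. Alox5ap differed in none of the pairs. The clearest splits were Ltc4s, high in AM and Ly6Clo and low in Ly6Chi, Pla2g7, highest in Ly6Chi and lowest in AM, and Cysltr1, highest in DC and lowest in AM. By edgeR, 6 genes were called between DC and AM (background 49.9% of genes), 4 between DC and Ly6Chi (28.7%), 6 between DC and Ly6Clo (24.4%), 6 between AM and Ly6Chi (52.2%), 4 between AM and Ly6Clo (21.5%) and 6 between Ly6Chi and Ly6Clo (30.7%). The libraries of the pair did not overlap for 4 genes between DC and AM (22.9%), 2 between DC and Ly6Chi (14.6%), 3 between DC and Ly6Clo (14.7%), 5 between AM and Ly6Chi (25.1%), 3 between AM and Ly6Clo (9.94%) and 2 between Ly6Chi and Ly6Clo (15.9%).

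Ptges was lowest in normoxic DC, at 2.69 ± 2.04 CPM (SD, n = 6), and reached 15.4 ± 14.9 in Ly6Chi (n = 6), 21.7 ± 11.1 in Ly6Clo (n = 5) and 28.3 ± 11.8 in AM (n = 6). DC was below each of the others (log2 fold change −3.24 ± 0.47 against AM, −2.88 ± 0.50 against Ly6Clo and −2.36 ± 0.47 against Ly6Chi), and the other 3 populations did not differ beyond the test. All 6 DC libraries lay below all AM and all Ly6Clo libraries, but not below all Ly6Chi libraries.

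Ptgs1 was ordered Ly6Clo (158 ± 15.8 CPM), Ly6Chi (108 ± 16.5), DC (85.7 ± 40.5) and AM (41.6 ± 13.8). AM was lower than every other population, with log2 fold changes of −2.01 ± 0.23 for AM minus Ly6Clo, −1.46 ± 0.22 for AM minus Ly6Chi and 1.06 ± 0.23 for DC minus AM. DC was also lower than Ly6Clo (DC minus Ly6Clo −0.95 ± 0.22), and neither Ly6Chi and DC nor Ly6Clo and Ly6Chi differed past the threshold (edgeR adjusted p = 0.161 and 0.0546). The latter difference (Ly6Chi minus Ly6Clo −0.55 ± 0.21) gained a call under 15 of 34 alternatives. Ptgs2 did not pass the filter. Its normoxic means were 7.73 ± 5.73 CPM in Ly6Chi, 3.85 ± 5.41 in DC, 0.51 ± 0.95 in AM and 0.33 ± 0.75 in Ly6Clo.

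Ltc4s was at 147 ± 14.8 CPM in normoxic AM, 104 ± 17.5 in Ly6Clo, 36.8 ± 11.8 in DC and 4.75 ± 2.79 in Ly6Chi. AM exceeded Ly6Chi by a log2 fold change of 4.87 ± 0.26, and Ly6Clo exceeded Ly6Chi as well (Ly6Chi minus Ly6Clo −4.34 ± 0.27, edgeR adjusted p = 7.19e-14 and 6.98e-12), with no overlap between libraries. DC lay between, with log2 fold changes of −1.98 ± 0.21 for DC minus AM, −1.46 ± 0.22 for DC minus Ly6Clo and 2.88 ± 0.26 for DC minus Ly6Chi, each past the test. AM and Ly6Clo, the upper neighbours, did not differ past the threshold (0.52 ± 0.21, edgeR adjusted p = 0.0817).

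The other leukotriene synthesis genes varied less. Alox5ap means were 516 ± 89.6 CPM in DC, 567 ± 42.6 in AM, 584 ± 101 in Ly6Chi and 624 ± 81.5 in Ly6Clo, and the largest of the 6 differences was that of DC minus Ly6Clo, −0.25 ± 0.11 on the log2 scale (edgeR adjusted p = 0.109). Alox5 was highest in Ly6Clo, at 131 ± 41.1 CPM, above DC (75.8 ± 47.6, DC minus Ly6Clo −1.01 ± 0.26) and Ly6Chi (89.2 ± 34.7, Ly6Chi minus Ly6Clo −0.68 ± 0.25), both called. AM (87.3 ± 26.7) did not differ from any population past the test. Its difference from Ly6Clo was about that of Ly6Chi (AM minus Ly6Clo −0.68 ± 0.26, edgeR adjusted p = 0.0571). It gained a call or moved by more than 1 SE under 9 of 34 alternatives. Lta4h was at 179 ± 36.9 CPM in Ly6Chi, 169 ± 28.0 in DC, 134 ± 46.2 in AM and 111 ± 20.4 in Ly6Clo. Ly6Clo was called lower than Ly6Chi and DC, and AM lower than Ly6Chi, with overlapping libraries (log2 fold change 0.72 ± 0.18 for Ly6Chi minus Ly6Clo, 0.60 ± 0.18 for DC minus Ly6Clo and −0.48 ± 0.17 for AM minus Ly6Chi). The Lta4h call between AM and Ly6Chi ended under 11 of 34 alternatives and that between DC and Ly6Clo under 4, and the Alox5 calls against Ly6Clo ended under 8 for Ly6Chi and 3 for DC.

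Cysltr1 was ordered DC (255 ± 34.0 CPM), Ly6Chi (183 ± 34.6), Ly6Clo (119 ± 23.8) and AM (24.9 ± 5.90), and every step was called. The steps on the log2 scale were 0.46 ± 0.13 for DC minus Ly6Chi, 0.66 ± 0.14 for Ly6Chi minus Ly6Clo and −2.23 ± 0.16 for AM minus Ly6Clo. AM libraries, at 15.3 to 30.1 CPM, lay below all libraries of the other populations, whereas DC and Ly6Chi libraries overlapped.

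The PAF genes shared a minimum in AM. Pla2g7 was at 750 ± 92.5 CPM in Ly6Chi, 295 ± 49.6 in DC, 242 ± 64.2 in Ly6Clo and 20.2 ± 8.25 in AM, and Ly6Chi exceeded AM (AM minus Ly6Chi −5.26 ± 0.22, edgeR adjusted p = 3.46e-15), the largest difference of the 10 genes between normoxic populations. DC and Ly6Clo did not differ past the test (0.34 ± 0.19, edgeR adjusted p = 0.205). Ptafr was at 65.1 ± 14.8 CPM in Ly6Chi, 57.5 ± 13.3 in DC, 42.5 ± 12.0 in Ly6Clo and 25.8 ± 12.0 in AM. AM was called lower than each of the others, and Ly6Clo lower than Ly6Chi by 0.71 ± 0.23, but the call between AM and Ly6Clo (edgeR adjusted p = 0.0463) ended under 22 of 34 alternatives and that between Ly6Chi and Ly6Clo under 8.

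**Figure D3:**
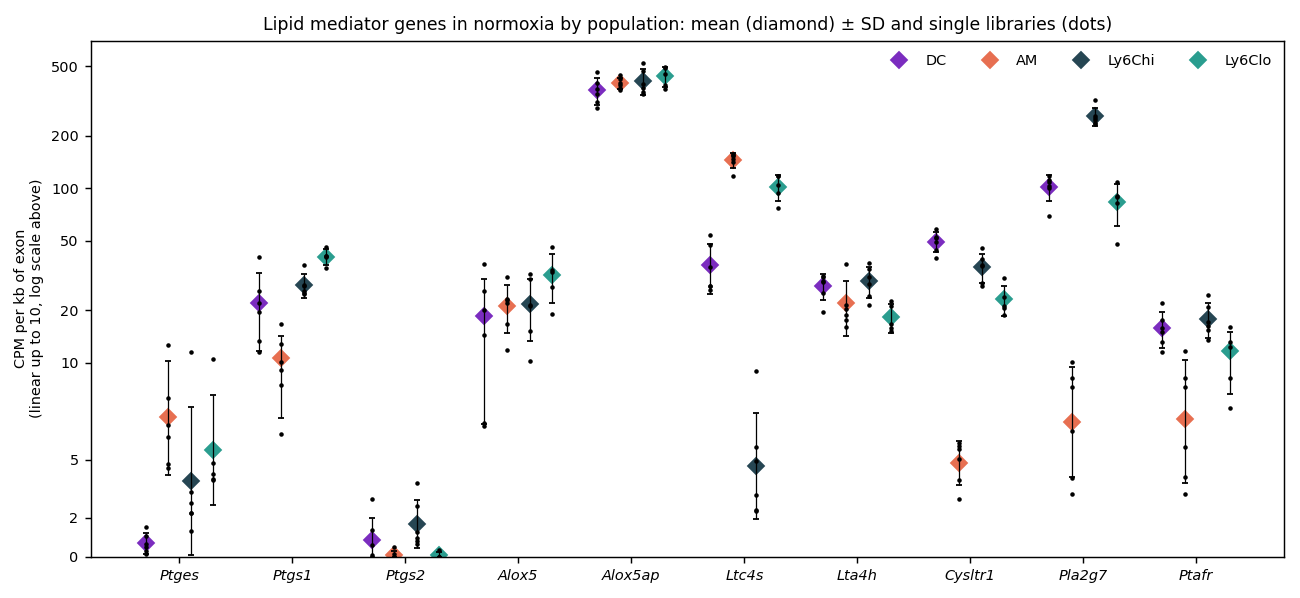
Level per length (CPM per kb of exon, y axis linear up to 10 and logarithmic above) of the 10 genes (x axis) in normoxic DC, AM, Ly6Chi and Ly6Clo. Diamonds are means with the SD and dots are libraries. Alox5ap is alike and highest in all 4, and Ltc4s, Cysltr1 and Pla2g7 spread most between populations.

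Levels of different genes can be set side by side only per length. As CPM per kb of exon, Alox5ap was the highest of the 10 genes in all 8 groups, at 363 to 518. In normoxic Ly6Chi and DC it was followed by Pla2g7 (258 and 102 CPM per kb), and in normoxic AM and Ly6Clo by Ltc4s (145 and 102 CPM per kb). Ptgs2 was lowest in 7 of the 8 groups, at 0.073 to 2.33 CPM per kb, and Ptges was lowest in normoxic DC, at 0.685.

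Over all 43 libraries the genes with the most similar log2 CPM, as Pearson's r among 12242 other genes, were Egr2 and Cd9 for Ltc4s (r = 0.94 for both), Rogdi (0.96) and Pak1 (0.94) for Cysltr1, Lpcat2 (0.95) for Pla2g7, and Myl12b (0.92) and Sat1 (0.90) for Alox5ap. Lpcat2 encodes an acyltransferase that makes PAF. Weaker likeness was found for Ptges (Bst1 at 0.83, Clcn7 at 0.82), Ptafr (Gbp2 at 0.84, Nlrc5 at 0.81), Lta4h (Tomm34 at 0.84, Lypla2 at 0.83), Alox5 (Pros1 at 0.83, Sla at 0.72), Ptgs1 (Cd300lb at 0.81, Cd300ld at 0.80) and Ptgs2 (Tor1aip1 at 0.76, Trafd1 at 0.73). The libraries share population, litter and depth, so these values describe the table only.

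Of 55 other genes of these pathways found in the table, 29 passed the filter in DC, 30 in AM, 33 in Ly6Chi and 31 in Ly6Clo, and 0 were called under hyperoxia in any population by edgeR. An unadjusted p under 0.05 was found for 6 in DC (8.85% of all genes), 5 in AM (9.91%), 1 in Ly6Chi (5.45%) and 4 in Ly6Clo (5.30%). DESeq2 called 1 of them in AM, Tbxas1, the thromboxane synthase gene (87.0 to 145 CPM in normoxia and 150, 212, 217, 161 and 200 CPM under hyperoxia, without overlap, log2 fold change 0.69 ± 0.16, edgeR adjusted p = 0.161), and 0 in the other populations. The interaction test called 0 of 36 by either tool, with 3 at an unadjusted edgeR p under 0.05 (4.92% of all genes). Among the normoxic pairs 31 of the 36 tested genes were called at least 1 time, read against the 71.1% of all tested genes. They were 25 between DC and AM, 16 between DC and Ly6Chi, 15 between DC and Ly6Clo, 22 between AM and Ly6Chi, 15 between AM and Ly6Clo and 16 between Ly6Chi and Ly6Clo, with the shares of all genes given above.

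Of 6 tested prostanoid receptor genes, 3 were called in each pair that includes DC, 1 between AM and Ly6Chi, 0 between AM and Ly6Clo (0 also at an unadjusted edgeR p under 0.05) and 1 between Ly6Chi and Ly6Clo, to be read against the shares of all genes given above. The 1 tested leukotriene receptor gene of this list was called in all 6 pairs. This gene, Ltb4r1, the high-affinity leukotriene B receptor, was at 383 ± 44.6 CPM in Ly6Chi, 133 ± 41.9 in DC, 75.7 ± 25.5 in Ly6Clo and 13.1 ± 6.39 in AM, and AM was lower than Ly6Chi (AM minus Ly6Chi −4.86 ± 0.28 on the log2 scale, edgeR adjusted p = 4.66e-13). Ptger3, a prostaglandin E receptor, was at 23.4 ± 10.6 CPM in DC and 0.51 to 1.31 on average in the others (5.29 ± 0.78 above AM). Ptgir, the prostacyclin receptor, was at 22.6 ± 8.42 CPM in AM and 2.51 ± 1.28 in DC (DC minus AM −3.06 ± 0.41).

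The other prostaglandin E receptors were found in all 4 normoxic populations, Ptger1 at 17.2 to 23.3 CPM on average, Ptger2 at 31.8 to 38.5 and Ptger4 at 26.9 to 71.7 with its highest mean in DC. Tbxa2r, the thromboxane receptor, was at 1.32 to 6.49 CPM on average in normoxia. The receptor genes Ptgdr, Ptgdr2, Cysltr2, Ltb4r2 and Oxgr1 were at 0 or few counts, with means of at most 2.26 CPM in any group, and Ptgfr had 0 counts in every library.

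Some terminal synthases and partners of the 10 genes also differed between the normoxic populations. Tbxas1 and Hpgds, the synthases of thromboxane and prostaglandin D, were at 191 ± 20.6 and 192 ± 49.3 CPM in normoxic Ly6Clo and at 27.0 ± 9.74 and 28.0 ± 11.7 in Ly6Chi (Ly6Chi minus Ly6Clo −2.81 ± 0.21 and −2.73 ± 0.23). Lpcat2 was at 273 ± 38.7 CPM in Ly6Chi and 23.8 ± 12.8 in AM (AM minus Ly6Chi −3.59 ± 0.27). Abcc1, which exports cysteinyl leukotrienes, was at 80.8 ± 19.6 CPM in DC and 15.5 ± 8.39 in Ly6Chi (DC minus Ly6Chi 2.35 ± 0.24), and Pla2g6, a calcium-independent phospholipase, at 34.1 ± 9.55 in AM and 4.67 ± 2.13 in DC (DC minus AM −2.87 ± 0.45).

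Ggt5, which trims leukotriene C, was at 23.0 ± 11.2 CPM in Ly6Clo and 5.57 ± 1.88 in AM (AM minus Ly6Clo −2.03 ± 0.38). Slco2a1, a prostaglandin transporter, was at 11.3 ± 7.29 CPM in AM and 2.59 ± 2.98 in DC with overlapping libraries (DC minus AM −2.11 ± 0.79, edgeR adjusted p = 0.0277). These 10 genes had the largest log2 fold changes among the called pathway genes, each given for the pair in which it was largest.

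**Figure D4:**
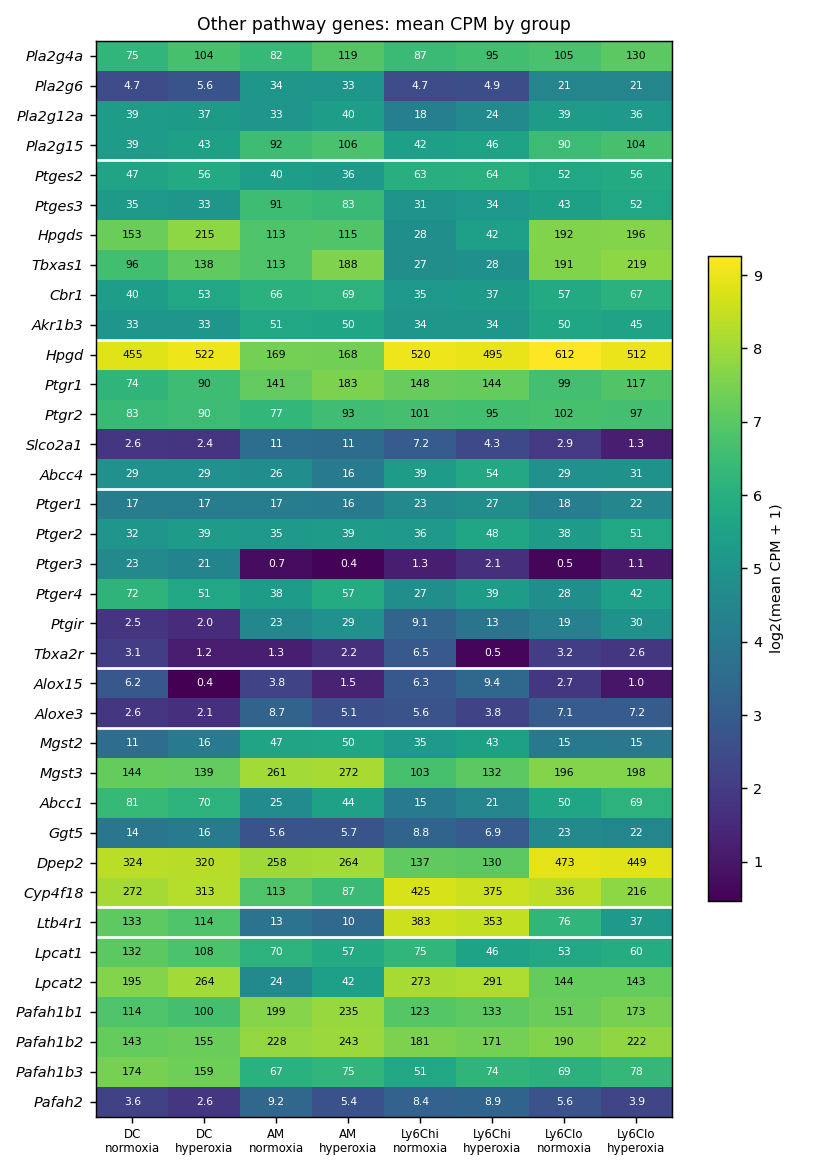
Mean CPM (printed in each cell, colour as log2 of mean CPM plus 1) of 36 other pathway genes (rows, by function) in the 8 groups (columns). Ltb4r1 is highest in Ly6Chi and lowest in AM, and Ptger3 stands out in DC, in normoxia and hyperoxia alike.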

How the data were processed

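Libraries were made with SMART-Seq v4 and Nextera XT kits, per the labels' protocols, which name no molecular identifiers. The deposited values are whole-number counts per Ensembl gene. Per the submitters' processing notes the tools were TopHat, HTSeq 0.4.1, FastQC, Picard and SAMtools and the build was NCBIM37, with no roles given. All 43 columns matched a sample and 0 were left unmapped. Symbols and exonic lengths came from GENCODE M21, a later build used for names and lengths only, and 32919 of 37991 genes had a symbol.

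Counts were filtered with filterByExpr (minimum count 10, minimum total 15), scaled by TMM and tested with edgeR 4.0.16 (limma 3.58.1, R 4.3.3), with litter as a block, quasi-likelihood F tests and Benjamini-Hochberg adjustment at 0.05 over all genes of a comparison. Hyperoxia was tested within each population, the 6 normoxic pairs in 1 fit of the 23 normoxic libraries, and the interaction over all 43 libraries. The SE is the log2 fold change divided by the square root of F. Prior counts were 0.125 for fold changes and 1 for log2 CPM. DESeq2 1.42.0 was an alternative, beside limma voom, no filter, other scalings, no block, and each library or litter left out. Further alternatives were libraries under 1000000 counts left out (where there were any), detected genes as a covariate, and counts corrected for a limit of 2 read positions per exonic base. The scripts were tested on simulated data. Python 3.11.15 and matplotlib 3.10.9 were used for sequences and figures.

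Named genes are all 10 members, the pathway genes called under hyperoxia or in the interaction, the 10 with the largest log2 fold change among those called in a normoxic pair, the measured receptors, and the 2 genes most like each member. Of these, 1 gene that the last rule names is not reported here. Tbxas1 under hyperoxia was named after its values were seen. The genes and marker lists were chosen with earlier results of these data known, and which values weighed in that choice is not recorded. Replicate numbers follow accession order and pair nothing.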

Additional observations from a re-analysis of the deposited data

Results flagged for a closer look

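In 16 of 80 groups of 5 or 6 libraries (10 genes in 8 groups), the highest or lowest library stood apart from the rest by Dixon's gap criterion, which chance meets in about 1 group in 20 of normally distributed values. That rate was not measured for skewed CPM or for groups that are mostly 0. The library of litter 100 was the one that stood apart in 7 hyperoxic groups: Ptges at 214 CPM in DC, Ptgs2 at 1.95 in AM (a single count, with 0 in the other 4 libraries) and 26.2 in Ly6Clo, Ltc4s at 237 in Ly6Clo, Ptafr at 229 in Ly6Chi and 249 in Ly6Clo, and Lta4h, low at 49.1, in Ly6Clo. The other hyperoxic group was Ltc4s in Ly6Chi, with 27.7 CPM in 1 library of litter 108.

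In normoxia the high libraries held 45.4 CPM of Ptges in Ly6Chi, 41.3 of Ptges in Ly6Clo, 140.3 of Ptgs1 in Ly6Chi, 224.5 of Lta4h in AM and 931 of Pla2g7 in Ly6Chi. Ptgs2 reached 2.35 CPM in 1 normoxic AM library and 1.67 in 1 normoxic Ly6Clo library, each from 3 counts, with 0 in all other libraries of the group for Ly6Clo and in 4 of 6 for AM. The low library was 1 of normoxic DC, with 201 CPM of Pla2g7.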

How the results depend on the processing

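The number of the 10 genes called under hyperoxia was 0 in each population and rose with DESeq2 to 1 in DC and 2 in AM. Without the count filter it was 2 in DC, 3 in AM, 1 in Ly6Chi, 2 in Ly6Clo and 2 for the interaction. With each library left out in turn it was 0 to 1 in DC and 0 to 1 in AM. Over all genes, calls with DESeq2 and without the filter were 20 and 369 in DC (0 in the reported fit), 110 and 325 in AM (11), 5 and 235 in Ly6Chi (0), 1 and 173 in Ly6Clo (0), and 17 and 524 for the interaction (0). Between normoxic Ly6Chi and Ly6Clo 6 of the genes were called, and 3 with litter 93 left out. Over alternatives, genes called ranged from 2776 to 6364 between DC and AM (reported 5977), 2045 to 3990 between DC and Ly6Chi (3434), 1524 to 3306 between DC and Ly6Clo (2926), 1432 to 2958 between AM and Ly6Clo (2574) and 2103 to 4186 between Ly6Chi and Ly6Clo (3677). With no replicate block (litter term left out), 0 of the 10 genes were called under hyperoxia in each population, and 6, 4, 5, 6, 3 and 4 in the normoxic pairs in place of 6, 4, 6, 6, 4 and 6. Of 91 fold changes, the 32 called ones kept their sign under all alternatives run and kept the call in 1026 values and lost it in 62. The other 59 changed sign in 81 values, spread over 21 of them, and 106 values moved by more than 1 SE and 55 gained a call. The cause was not tested. Ptgs2 held at most 43 counts in a library.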
